A study of Drosophila melanogaster with 18 samples.

Results

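DNA adenine methyltransferase (Dam) expressed on its own marks the DNA it can reach, and the 9 libraries of Dam alone among the 18 of this study give such a map for the eye-antennal disc of the fly larva. The disc is the larval tissue that forms the eye, the antenna and the head capsule. The 9 libraries were taken by their titles, as 3 replicates in each of Sets 1, 2 and 3. All carried UAS-Dam under Eyeless-Gal4 with a temperature-sensitive Gal80 repressor, in discs of larvae early in the third instar. The other 9 libraries, which serve here only for comparison, carried Dam fused to a chromatin protein under the same driver and repressor. These were Dam-Sd (Scalloped, the TEAD-family factor of the Hippo pathway) and Dam-Jra (the Jun subunit of AP-1), both titled Set 1, and Yki-Dam (Yorkie, the Hippo coactivator), titled Set 2. In all groups eggs were laid at 25 °C, kept at 18 °C for 4 days and moved to 29 °C for 24 hours before dissection. Eyeless-Gal4 limits Dam to cells in which the eyeless enhancer of the driver is active, so a level is an average over those cells. A site open in few cells and a site weakly open in many cannot be told apart. Nothing in the labels ties a replicate to its own cross or pool of larvae, so the p-values may measure technical spread.

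Dam comes from bacteria and methylates the adenine of GATC, a modification that fly DNA carries at most at trace levels. Free Dam has no binding preference of its own beyond GATC, and it methylates nucleosome-free DNA at promoters and enhancers more readily than DNA in compact chromatin. In fusion experiments Dam alone serves as the control, and its profile is often read by itself as a record of open chromatin. Genes that a tissue uses are in open chromatin, whereas genes of other tissues are often in Polycomb-repressed or otherwise closed domains, and repeat-rich heterochromatin surrounds the centromeres and makes up most of the Y.

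The count table held 767321 ends of 383661 GATC sites, and an end is one side of a site with the fragment that leads to the next site. The Dam libraries held 21416846 to 39848344 reads, and 153975 ends (20.1%) held no read in any of them. The libraries differed in contrast. The highest 1% of ends took 24.6, 24.8 and 16.9% of the reads in Set 1, 32.8, 24.5 and 27.8% in Set 2 and 32.5, 33.8 and 34.5% in Set 3, with the lowest share in Set 1 replicate 3. Across gene windows, log levels correlated with r of 0.830 to 0.978 for the 9 pairs of libraries within a set and 0.774 to 0.922 for the 27 pairs between sets, where the points are the same genes in each library. Of the 7673 ends in the highest 1% of a set, 4930 (64.3%) were shared by all 3 sets.

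Dam methylation was highest next to gene edges and lowest between genes and on the Y. Relative to the mean end of a library, ends within 500 bp of an edge of a protein-coding gene had a level of 1.33 ± 0.0441 (SD, n = 9 libraries), ends further inside genes 1.01 ± 0.0342 and ends further outside genes 0.762 ± 0.0674. Edges were taken without regard to strand, so starts and ends of genes are mixed. The ends of the highest 1% shared by the 3 sets lay near an edge in 27.0% of cases, against 17.0% of all ends. Levels outside genes were 0.637 to 0.850 in the Dam libraries, against 0.874 to 1.02 in the fusion libraries, and these ranges did not overlap.

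The level also moved with fragment length. Ends of fragments of up to 100 bases, 32.2% of all ends, had a level of 0.0901 ± 0.00855 times the mean end. Ends of fragments between 100 and 200 bases reached 1.76 ± 0.153, and those between 200 and 500 bases 1.85 ± 0.106. The level then declined with length, through 0.830 for 500 to 1000 bases and 0.432 for 1000 to 2000 bases, to 0.157 over 5000 bases. By chromosome, ends had a mean level of 1.16 on 2L, 1.08 on 3L, 1.06 on 3R, 1.03 on 2R, 0.960 on the small chromosome 4, 0.786 on the X and 0.0216 on the Y. On the Y 33.4% of ends held a Dam read. How much of the X and Y levels comes from the sex of the larvae was not tested.

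**Figure D1:**
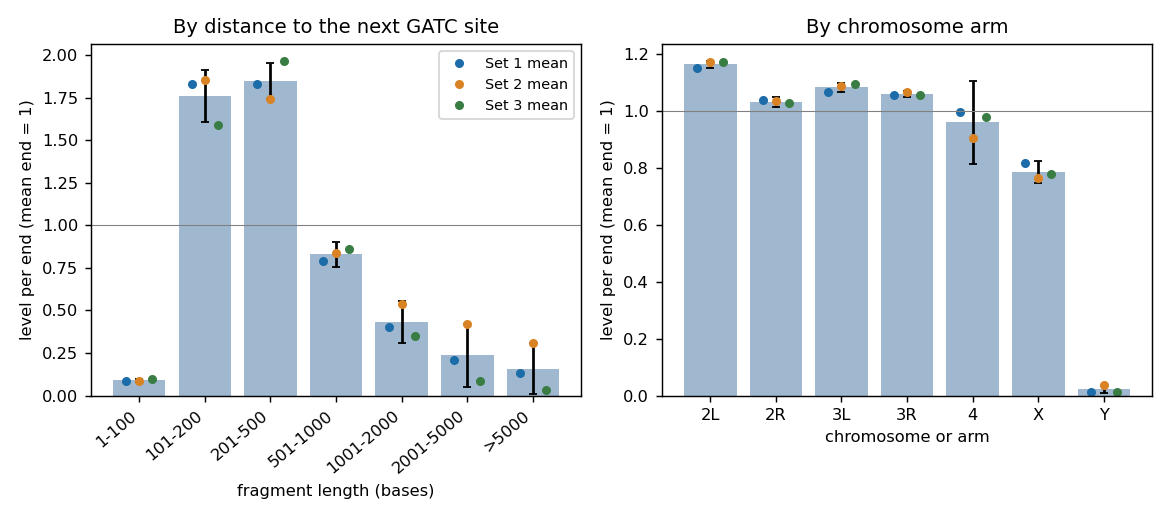
Mean level per GATC end, with the mean end of a library set to 1, by distance to the next GATC site (left) and by chromosome or arm (right), where bars are means of the 9 Dam libraries, error bars their SD and points the set means. Ends of 100 to 500 bases stand at 1.76 and 1.85, ends of up to 100 bases at 0.0901, and the Y at 0.0216.

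Genes were compared by window, the span of a gene with 1 kb on both sides. The level of a window is its reads per end relative to the median window of the same library, and on the log2 scale the median window is 0. The window at the 25th percentile had 0.553 times the level of the median window and the one at the 75th 1.75 times, while the 5th and 95th percentiles were at 0.214 and 4.04 times. A window was called above or below the median where its mean over the 3 sets departed from it by more than 2-fold (edgeR quasi-likelihood test against that margin, Benjamini-Hochberg adjusted p below 0.05 over 14067 windows). By this rule 2456 windows (17.5%) were called above and 2471 (17.6%) below. In each of the 3 sets taken alone, 1411 windows (10%) were called above and 850 (6.04%) below, and these are named consistent here for their direction. Their levels were not all alike, since 930 of the 1411 (65.9%) and 422 of the 850 (49.6%) differed between sets in the test between sets (edgeR quasi-likelihood F test, adjusted p below 0.05), against 47.9% of all windows. A single window was called above in 1 set and below in another. More windows were called in Set 3 (3038 above and 3106 below) than in Set 1 (1628 and 1935) or Set 2 (1908 and 1097). The spread between the 10th and 90th percentile of windows was also widest in Set 3, at 4.15 to 4.19 on the log2 scale, against 2.87 to 3.39 in Set 1 and 2.63 to 3.16 in Set 2.

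Genes that specify the eye were among the most methylated gene groups. Their median log2 level was 1.58 over 21 genes, a 2.98-fold level relative to the median window, and 11 were called above and none below, where 17.5% and 17.6% of all windows were. In each set alone 8 of the 21 were called above, against 10% of all windows. The 3 most methylated were fng, the glycosyltransferase that modifies Notch at the dorsoventral midline, and Optix and so, both homeobox genes of the sine oculis family. The window of fng (3L:20925891-20949512 in dm6) had a lowest, median and highest value of 3.39, 7.21 and 8.86 CPM (counts scaled to the library's total) per end over the 9 libraries. That is a log2 level of 2.73 ± 0.640 (SD over libraries; adjusted p = 1.8e-11). Optix had 3.74, 6.02 and 9.21 CPM per end, a log2 level of 2.59 (adjusted p = 2.3e-10). All 3 genes were above the median window in every Dam library.

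The Pax6 gene ey itself had 4.10, 4.18 and 2.44 CPM per end in Set 1, 3.67, 4.13 and 4.91 in Set 2 and 4.48, 4.78 and 6.25 in Set 3. Its log2 level was 2.10 ± 0.577 (adjusted p = 8.9e-09), and the lowest library was Set 1 replicate 3. The driver in all 18 libraries carries an eyeless enhancer too, and its reads cannot be told apart from those of the gene. Partners of ey in the retinal determination network were also called above. The phosphatase gene eya had a log2 level of 1.91, so 2.28, and dac, a nuclear cofactor, 1.67. The Iroquois genes caup (2.04) and mirr (1.58), which mark the dorsal eye, and the proneural gene ato (1.89), which founds the R8 photoreceptor, were called above as well, as were tsh (1.68) and the homeobox gene ro (1.58). The Iroquois gene ara, also on the list, was not called, with single libraries at −0.38 to 1.00. For toy, the other Pax6 gene, the level was 0.81 (adjusted p = 1), with 1.31, 1.71 and 2.16 CPM per end as the lowest, median and highest values. At the low end of the list stood gl and sens, zinc-finger genes of differentiating photoreceptors, both at −0.56, and the Pax gene eyg at −0.53, none of them called.

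Eye genes were highest in Set 3. Their median log2 level was 0.91 in Set 1, 1.39 in Set 2 and 1.98 in Set 3, and single libraries had medians of 0.36 (Set 1 replicate 3) to 2.11 (Set 3 replicate 3). In all 21 genes the mean of Set 3 exceeded that of Set 1, against 51.6% of all windows, and in 20 of them all libraries of Set 3 were above all of Set 1, against 32.1% of all windows. The antennal genes below also had this order, in 24 of 27 by their means and in 12 without overlap. In 18 of the 21 eye genes the lowest library was Set 1 replicate 3, against 20.5% of all windows, and that library had the lowest share of reads in its highest ends. Without that library or any other the list's median stayed between 1.52 and 1.61. In the test between sets 13 of the 21 (61.9%) passed, against 47.9% of all windows (6733). By the share of reads in the highest 1% of ends, contrast was likewise highest in Set 3 and lowest in Set 1 replicate 3. By the spread of windows it was not in this order, with 2.63 to 3.16 in Set 2 and 2.87 to 3.39 in Set 1 on the log2 scale. The part of contrast in the result was not tested.

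Genes that specify the antenna had no such common level. Over 27 genes the median log2 level was −0.16, or 0.03 over ends with a read and 0.21 over ends of 1 window alone. Of the 27 genes 6 were called above (22.2%, against 17.5% of all windows) and 1 below (3.70%, against 17.6%). In each set alone 2 of the 27, hth and danr, were called above and none below, against 10% and 6.04% of all windows. The homeobox gene hth, which acts with Dll to set antennal fate, had 2.79, 3.94 and 4.73 CPM per end as the lowest, median and highest values over its 630 ends. Its log2 level was 1.92 ± 0.469 (adjusted p = 1.2e-09), and it was called above in each set. Dll, the distal limb gene, had 2.08, 2.45 and 3.05 CPM per end, a log2 level of 1.34 (adjusted p = 0.00011). The LIM-homeobox gene ap (1.73), the zinc-finger gene rn (1.66) and inv (1.47), the paralogue of engrailed, were also called above. The bHLH-PAS gene ss, which directs distal antennal identity, was at 0.48 and ct at −0.38, neither called. The zinc-finger gene btd was called below, at −1.78, with 29 of its 48 ends holding a Dam read.

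The most methylated antennal gene was danr, distal antenna-related. Its window had 15.7, 20.1 and 8.03 CPM per end in Set 1, 33.2, 20.4 and 28.3 in Set 2 and 30.2, 40.9 and 38.9 in Set 3, a log2 level of 4.62 ± 0.970 (adjusted p = 6.5e-14). All 9 libraries were far above the median window. The signal lay beside the gene, since the gene span without its 1 kb flanks was at −1.88 (adjusted p = 0.0011). In all, 7 of the 27 antennal genes were above the median window in all 9 libraries and 10 below it, while for the eye genes these counts were 12 and 1 of 21. Of all windows 32.5% were above it in all 9 libraries and 31.9% below.

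**Figure D2:**
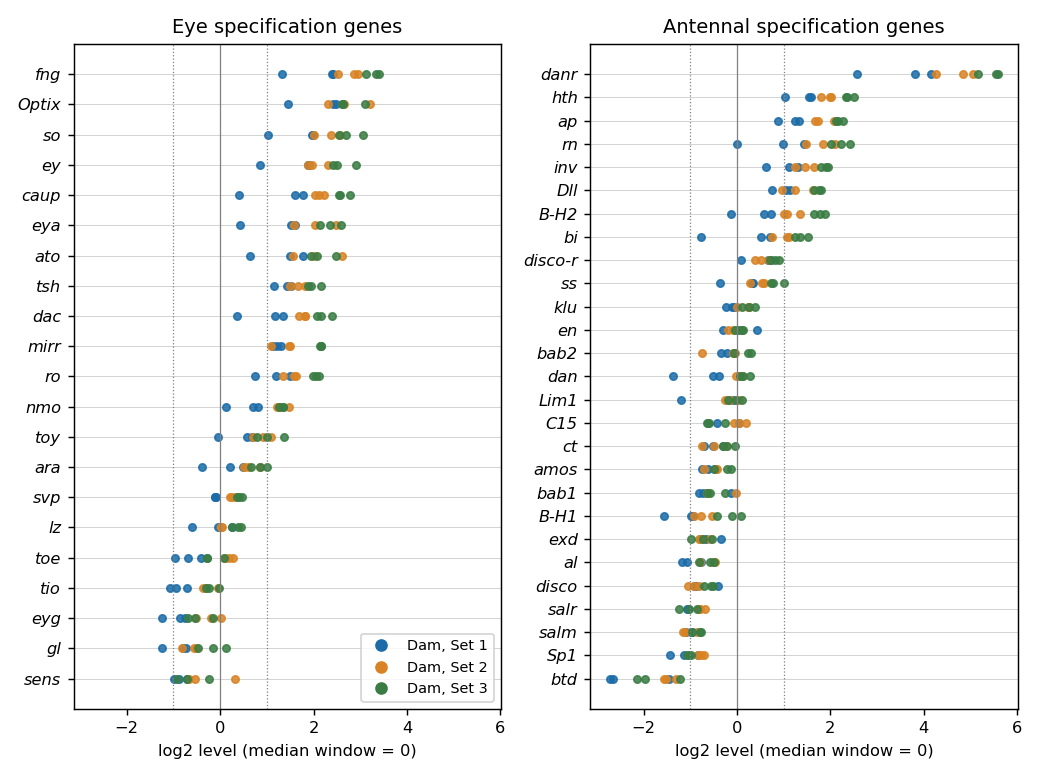
Log2 level of each eye gene (left) and antennal gene (right) in the 9 Dam libraries, 1 point per library coloured by set, where the solid line is the median window and dotted lines mark 2-fold above and below. From fng (2.73) to mirr (1.58) the eye genes called above lie right of 0 in all libraries, whereas the antennal genes spread from danr (4.62) to btd (−1.78).

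Housekeeping genes lay modestly above the median window as a family. Over 267 genes the median log2 level was 0.39, with 69 called above (25.8%, against 17.5% of all windows) and 22 below (8.24%, against 17.6%). Their library medians ran from 0.29 to 0.56. The 79 ribosomal protein genes had a median of 0.77, with 29 called above and 2 below, and 22 genes of the cytoskeleton and translation core had 0.76, with 7 above and 1 below. Proteasome subunits (32 genes, median 0.24), the mitochondrial ribosome (70 genes, 0.16) and the respiratory chain (64 genes, 0.16) were closer to the median window.

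Within these groups single genes spanned the whole range. The actin-binding profilin gene chic had 6.30, 9.89 and 11.8 CPM per end as the lowest, median and highest values, a log2 level of 3.26 (adjusted p = 3.2e-13). RpS9 had 8.33, 13.6 and 20.6 CPM per end and a log2 level of 3.86 (adjusted p = 9e-14), and the actin gene Act5C was at 2.22. The ATP synthase subunit ATPsynD (3.41) and the complex I subunit ND-MNLL (3.29) were also called above in each set. RpL32, often used as a reference gene for transcripts, had 1.49, 1.94 and 2.95 CPM per end and a log2 level of 1.00, which did not exceed the 2-fold margin (adjusted p = 0.59). The proteasome ATPase Rpt4 had 0.0264, 0.0856 and 0.185 CPM per end, a log2 level of −3.66 (adjusted p = 4.8e-09), and the polyubiquitin gene Ubi-p63E was at −2.59. Both low genes held few ends that could be read, with a Dam read at 25 of 42 ends for Rpt4 and 38 of 92 for Ubi-p63E.

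Families chosen as mostly silent in larval discs, with the Hox genes among them, were below the median window. Over 456 genes of these 14 families the median log2 level was −0.57, with 33 called above (7.24%, against 17.5% of all windows) and 132 below (28.9%, against 17.6%). The lowest family medians were −1.26 for 14 Jonah gut proteases, −1.14 for 60 odorant receptors and −1.08 for 32 dpr and DIP genes, which encode neuronal surface receptors. Of the odorant receptors 27 were called below (45.0%) and 2 above, and of the dpr and DIP genes 13 were below (40.6%) and none above. Ionotropic receptors were at −0.80 (21 of 60 below, or 35%, and 1 above) and gustatory receptors at −0.39 (16 of 60 below, or 26.7%, and 3 above). The 50 cuticle protein genes of the Cpr family had the highest median of these families, 0.04, with 11 called above (22.0%) and 5 below (10%), near the shares of all windows.

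Examples from these families show both ends of the range. The odorant receptor Or59b had 0.0242, 0.164 and 0.464 CPM per end as the lowest, median and highest values, a log2 level of −2.99 (adjusted p = 4.7e-08), and the UV opsin gene Rh3 was at −2.28. The photoreceptor channel gene trp had 0.132, 0.23 and 0.373 CPM per end and a log2 level of −2.09 (adjusted p = 7.3e-07). Orco, the coreceptor of all odorant receptors, was at −0.15 and the main opsin gene ninaE at −0.15, neither called. At the other end, the odorant-binding protein gene Obp56a had 9.11, 17.1 and 19.2 CPM per end, a log2 level of 4.00 (adjusted p = 1.4e-14). Osi24 (3.70), the seminal protein gene Acp26Ab (3.65) and the gustatory receptor gene Gr39b (2.62) were also called above in each set. In Gr39b, Set 2 replicate 1 had 1.04 CPM per end, whereas the other 8 libraries had 5.15 to 9.77.

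Of the 8 Hox genes 3 were called below on the mean of sets (37.5%, against 17.6% of all windows) and none above. These were the genes of the bithorax complex, with abd-A at −1.64, Ubx at −1.56 and Abd-B at −1.21. None of them was called below in each set, and in Set 2 alone they were at −0.76, −0.82 and −0.46 in the same order (adjusted p = 1 for each). Ubx had 0.265, 0.430 and 0.377 CPM per end in Set 1, 0.535, 0.676 and 0.516 in Set 2 and 0.172, 0.193 and 0.216 in Set 3, so that all libraries of Set 3 were below those of the other sets (between sets, adjusted p = 0.0012). The other 5 were not called, with Dfd at 0.78, lab at 0.75, Antp at 0.26, pb at −0.30 and Scr at −0.46. Per gene, Antp had 0.984, 1.20 and 1.39 CPM per end as the lowest, median and highest values.

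Markers of other cells that a disc preparation could hold had list medians of −0.94 to 0.12. Their counts are over 8 to 10 genes each and stand beside 17.5% of all windows called above and 17.6% below. Of 10 neuron markers none were called above and 4 below (median −0.94), with fne at −1.70, whereas elav, the pan-neuronal gene, was at 0.39. Of 8 glial markers 1 was called above, alrm at 1.52, and repo, the defining gene, was at −1.01 (adjusted p = 0.51). Of 10 haemocyte markers 2 were below and none above (Pxn −1.99), of 10 muscle markers 3 were below and none above, and of 9 fat body markers 3 were below and 2 above. Of 9 germline markers 1 was above and 1 below (median 0.12). The counts of all these lists except the neuron list are within 2 genes of those shares. The values are levels of DNA methylation and do not measure transcripts.

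**Figure D3:**
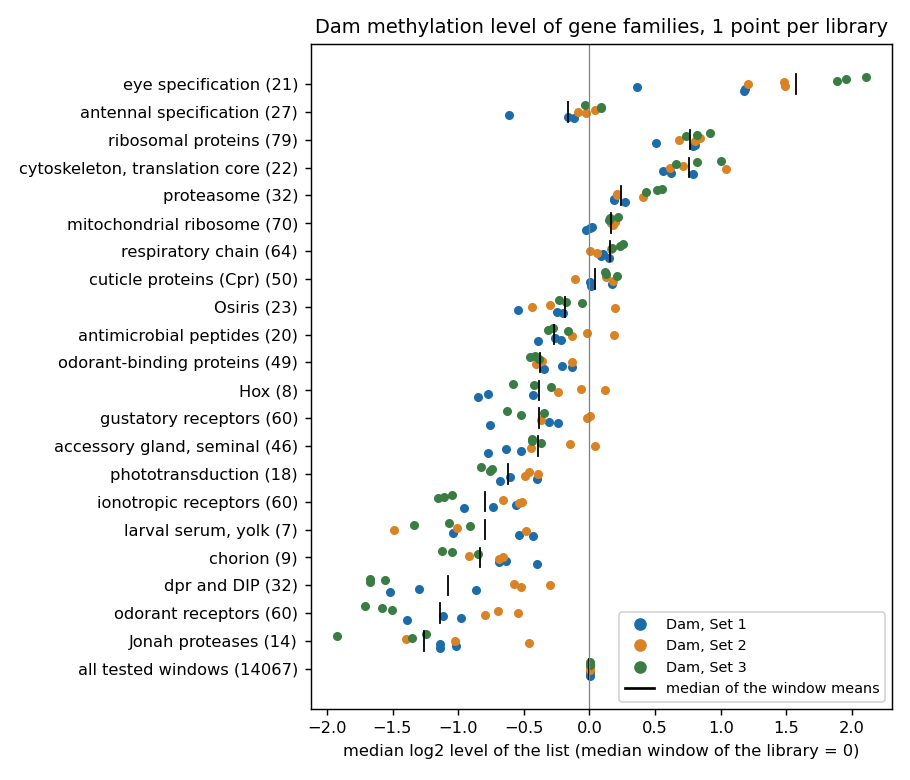
Median log2 level of each gene list in each of the 9 Dam libraries, coloured by set, with the number of genes tested in brackets and the median of the window means as a black bar. The bar of the eye genes (1.58) lies right of those of all other lists shown, with Jonah proteases (−1.26) and odorant receptors (−1.14) furthest left and all tested windows at 0.

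Windows in which few ends can be read weigh on the low side of this order. Of the 850 consistently low windows 646 (76.0%) had a Dam read in under 80% of their ends, against 50 of the 1411 consistently high windows (3.54%) and 21.2% of all tested windows. Their median fragment was 128 bases, against 202 in the high windows and 175.5 in all. The X held 33.8% of the low windows, 5.74% of the high ones and 15.8% of all. Among the 11088 windows with a read in at least 80% of ends, the silent families still had 59 of 331 genes called below (17.8%) and 31 above (9.37%), against 10.1% and 21.1% of all such windows. The housekeeping genes had 66 of 222 called above (29.7%) and 9 below, and the eye genes 11 of 17 above and none below. Reads expected from the fragment lengths alone had list medians of 0.894 to 1.16 times the mean end.

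Within 500 bp of a gene edge, the median eye gene was above the median gene of the other families. In the 500 bp outside an edge, the median eye gene had a level of 1.80 ± 0.432 times the mean end (SD, n = 9), the median housekeeping gene 0.944 ± 0.123, the median antennal gene 0.519 ± 0.110, the median gene of the silent families 0.511 ± 0.141 and the median protein-coding gene 0.694 ± 0.123. The antennal and silent-family values were within their spread of each other there. In the first 500 bp inside the edge these levels were 1.42 for eye, 0.865 for housekeeping, 0.255 for antennal, 0.452 for silent-family and 0.651 for all protein-coding genes. The eye genes were higher again deep inside the gene, at 2.28 between 3.5 and 4 kb, 2.40 between 4 and 4.5 kb and 2.04 between 4.5 and 5 kb from the edge, over the 13 or 14 genes with ends there. The median antennal gene was not below all protein-coding genes throughout, with 0.737 against 0.613 between 1.5 and 2 kb outside the edge and 0.759 against 0.571 between 4 and 4.5 kb inside it. Single genes can carry a mean over ends: danr held 84.9% of the antennal level in the 500 bp outside the edge, and fng 47.5% of that of the eye genes. Between 2.5 and 3 kb inside the edge, chic held 86.0% of the level of the 6 housekeeping genes with ends there.

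**Figure D4:**
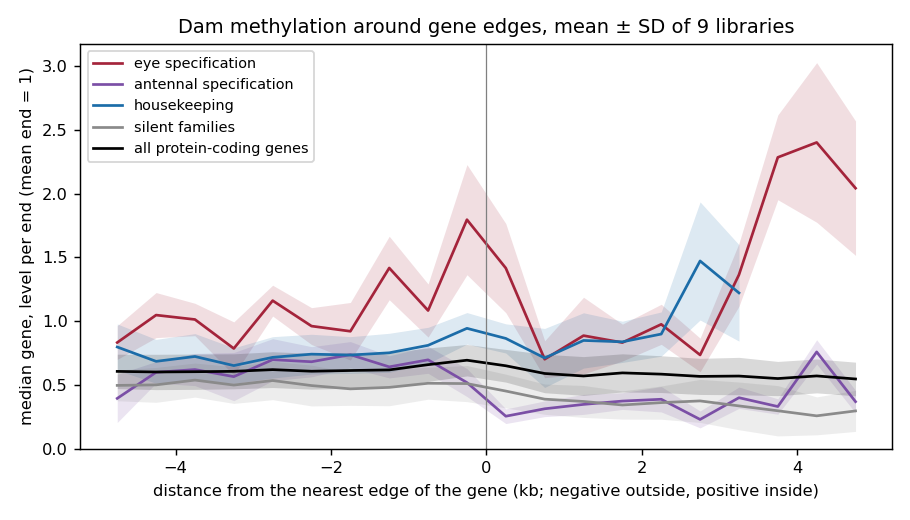
Level per end of the median gene by distance from the nearest edge of the gene, for bins of 500 bp with at least 5 genes, where lines are means of the 9 Dam libraries and bands their SD. In the 500 bp outside the edge eye genes are at 1.80 and housekeeping genes at 0.944, with antennal genes (0.519) and silent families (0.511) below all protein-coding genes (0.694), and eye genes reach 2.40 between 4 and 4.5 kb inside, where antennal genes (0.759) are above all protein-coding genes (0.571).

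The most methylated windows of the genome were led by a pair of neighbours on 3L, CG14566 (3L:21739479-21740309) and CG14567 (3L:21737706-21738430). CG14566 had 52.7, 54.5 and 25.3 CPM per end in Set 1, 42.6, 49.8 and 55.8 in Set 2 and 80.001, 78.9 and 75.6 in Set 3. Its level was 55.6-fold that of the median window (log2 5.80, adjusted p = 8.7e-17), and Set 3 was above the other sets without overlap. The signal was in short fragments: from fragments of 200 to 2000 bases alone its log2 level was 0.33. CG14567 had a log2 level of 5.55, and 0.63 without its flanks, so it may share the signal of its neighbour.

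Next came CG45544 on 3R, at 10.8, 26.2 and 37.9 CPM per end as the lowest, median and highest values (log2 level 4.67), and danr. Aprt, the gene of adenine phosphoribosyltransferase, had 11.4, 19.8 and 20.996 CPM per end and a log2 level of 4.20, but −0.14 in the gene span without flanks. The other windows among the 12 highest were CG42808 (4.13), Obp56a (4.00), Cyp4d21 (3.98), CG11275 (3.98), CG3909 (3.97), CG43051 (3.95) and CG30016 (3.90). All 12 were called above in each set, and for CG11275, CG3909, CG43051 and CG30016 every end also belonged to another window. A single end held 22.5 to 38.7% of the reads of these windows.

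The least methylated windows were copies of repeated genes, whose reads cannot be placed with certainty. Sdic4, 1 of a cluster of near-identical genes on the X, had 0.0198, 0.0127 and 0.0105 CPM per end in Set 1, none in Set 2 and at most 0.000523 in Set 3, with a Dam read at 14 of its 48 ends. Cyp12d1-d (9 of 46 ends), BaraA2 (7 of 32) and 5 copies of the histone gene His1 completed the 8 lowest. Cyp12d1-d and the 5 His1 copies held reads in every library of Set 1 and none in Sets 2 and 3. With libraries at or near 0, no fold is given for these 8.

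Low windows whose ends can mostly be read were looked up after these values were seen. They were taken from consistently low protein-coding windows with at least 10 ends and a read in at least 80% of them. Windows that shared most of their ends with a lower one were left out. Outside the histone copies, the lowest were cid, CG42810 and CG4593. For cid and CG42810 every end also belonged to another window, and a single end held 65.5% of the reads of CG42810. The gene cid, which encodes the centromeric histone H3, had 0, 0.0671 and 0.121 CPM per end as the lowest, median and highest values, with a Dam read at 14 of 16 ends. CG42810 had 0.0126, 0.0321 and 0.259 CPM per end and CG4593 had 0.0063, 0.107 and 0.271, at 0.0451 and 0.0570 times the median window. After these came CG2209, CG5662, CG9101, Andorra, ENGase and CG14630, all 6 on the X and at 0.0648 to 0.102 times the median window. Close behind was CG13488 on 2R, at 0.104 times. Every end of CG2209, Andorra, ENGase and CG14630 was also shared with another window. The median fragment was 68 bases in CG42810, 71.5 in CG2209 and 88 in Andorra. Across the genome, ends of fragments of up to 100 bases had a level of 0.0901 times the mean end.

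Regions without regard to genes gave a like picture. Of 13506 bins of 10 kb, 3086 (22.8%) were called above the median bin by more than 2-fold and 3259 (24.1%) below, and 1943 (14.4%) and 1680 (12.4%) in each set. The highest bin was 2R:13460001-13470000 in arr, the Wnt coreceptor gene, with 7.39 to 32.1 CPM per end over the 9 libraries, 26.4-fold the median bin. It was followed by 3R:21890001-21900000 with CG6678 and CG43844 (25.1-fold), 3R:9880001-9890000 in Glut4EF (23.6-fold), and 2L:9520001-9530000 with Oatp30B (23.5-fold). In each of these 4 bins 94.3 to 100% of ends held a Dam read.

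Consistently high bins formed 1278 runs, mostly of a single bin. The longest run, 10 bins at 2L:15330001-15430000, held the Snail-family genes esg and wor, with a median log2 level of 2.55. Others were 9 bins with ds, the Dachsous cadherin gene (2L:620001-710000), 8 bins with noc, a zinc-finger gene of appendage development (2L:14480001-14560000), and 8 bins with the cell death gene hid (3L:18170001-18250000, median 3.07). A further run of 8 bins (3R:30240001-30320000) held heca and genes known by number alone, such as CG9737 and CG9733. Runs of 7 bins held hry, the gene hairy (3L:8650001-8720000), and kibra, an upstream gene of the Hippo pathway (3R:14710001-14780000). Another of 7 bins (3R:19060001-19130000) held cdi, CG6040 and the housekeeping genes mRpL55 and ATPsynD. In all of these runs 87.7 to 96.6% of ends held a Dam read.

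Consistently low bins formed 737 runs, and the longest were in repeat-rich DNA. The longest, 32 bins inside Myo81F (3R:1040001-1360000), had a median log2 level of −3.67 with a Dam read at 52.7% of ends. On the Y 94.7% of tested bins were called below in each set and none above. By arm, the share called above and below in each set was 17.0 and 5.66% on 2L, 15.9 and 13.4% on 2R, 16.6 and 10.6% on 3L, 15.1 and 11.9% on 3R, 8.40 and 3.05% on chromosome 4, and 8.45 and 12.5% on the X. The longest low run in which over 80% of ends held a read was 3 bins at RunxA (X:20590001-20620000, median −2.37).

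Gene length moved with the level too. Genes of up to 1 kb had a median log2 level of −0.38, those of 1 to 2 kb −0.08, those of 10 to 20 kb 0.33 and those over 50 kb −0.05. The median eye gene was 15347 bp long, the median antennal gene 20846 bp, the median housekeeping gene 1260 bp and the median gene of the silent families 1432.5 bp. The part of length in the order of the families was not tested.

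Dam alone was then compared with the 3 fusions, to show where the open-chromatin map differs from them. Over 14082 windows 5861 (41.6%) were higher in Dam alone and 4016 (28.5%) lower (edgeR, mean of 3 Dam groups minus mean of 3 fusion groups). The median window differed by 0.22 on the log2 scale. These differences follow TMM scaling, a factor per library, whereas CPM per end are scaled to library totals alone. A difference is therefore not the ratio of the CPM values beside it. Reads were less concentrated in the Dam libraries, whose highest 1% of ends took 16.9 to 34.5% of reads, against 41.7 to 51.6% in the fusion libraries. The part of this gap in the result was not tested.

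Of the 21 eye genes none were higher in Dam alone and 20 were lower, against 41.6% and 28.5% of all windows. Their median difference was −1.32. For so, Dam libraries had 2.76, 4.91 and 6.99 CPM per end as the lowest, median and highest values, and fusion libraries 7.85 to 14.47, without overlap. After TMM scaling the difference was −2.23 ± 0.174 on the log2 scale (SE, adjusted p = 3.2e-09). For hth, Dam libraries had 2.79 to 4.73 CPM per end and fusion libraries 5.36 to 6.92. Its difference after TMM scaling was −1.73 ± 0.130 (adjusted p = 2.3e-09). Of the 27 antennal genes 2 were higher in Dam alone and 19 lower, against those same shares of all windows.

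The silent families differed in the other direction, with 269 of 456 genes higher in Dam alone and 61 lower. Of all windows 41.6% were higher and 28.5% lower. The median difference of these families was 0.68. For trp, Dam libraries had 0.132 to 0.373 CPM per end and fusion libraries 0.00831 to 0.113. Its difference after TMM scaling was 1.92 ± 0.250 (adjusted p = 1.6e-06). Orco was higher in Dam alone by 1.04 ± 0.129 (adjusted p = 8.9e-07). Of 267 housekeeping genes 68 were higher in Dam alone and 84 lower, against 41.6% and 28.5% of all windows. With library size alone as the scale, the median window was higher in Dam alone by 1.16, and 91.7% of called windows were higher, against 59.3%. On that scale the median difference was −0.34 for eye genes (4 higher, 12 lower) and 1.60 for silent families (409 higher, 14 lower), on either side of that shift. After TMM scaling, with Dam-Sd and Yki-Dam against Dam of their own sets, the eye median was −1.56 (none higher, 20 lower). That of the silent families was 0.63 (219 higher, 66 lower).

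The places where fusions were called by the authors were also rich in free Dam. The authors' deposited lists gave 5057 peaks for Dam-Sd, 3878 for Yki-Dam and 4568 for Dam-Jra. The sources used here do not state if libraries were pooled before calling. Such lists set a fusion against Dam, so the peaks and the Dam levels may share libraries. Ends in these peaks had a mean level in the Dam libraries of 5.85 ± 0.857 (Dam-Sd), 5.88 ± 1.08 (Yki-Dam) and 4.73 ± 0.747 (Dam-Jra) times the mean end (SD, n = 9). Peaks of any fusion held 59.2% of the highest 1% of ends shared by the 3 Dam sets, and 6.77% of all ends. A peak lay in 77.4% of the consistently high windows, in 7.18% of the consistently low ones and in 38.7% of all. A peak needs reads, and 76.0% of the low windows had a Dam read in under 80% of ends, against 3.54% of the high ones. The part of this in the shares with a peak was not tested.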

How the data were processed

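The authors' deposited count table gave raw whole-number read counts per GATC end for 18 libraries. Per the submitters' processing notes, the build was dm6 and the tools included featureCounts from Subread, bedtools and edgeR, with no versions given in the sources used here. The deposited peak lists held a log2 fold and a p-value for each peak, of which only the positions were used here. Counts were summed over gene spans of the RefSeq table (Release 6 plus ISO1 MT, the dm6 assembly) with 1000 bp on both sides, giving 14184 windows with a median of 32 ends, of which 89.9% shared ends with another, and over bins of 10000 bp.

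Levels were tested in edgeR 4.0.16 (R 4.3.3) with glmTreat at a log2 margin of 1, over the 9 Dam libraries as 3 set means (6 residual degrees of freedom). Offsets were the number of ends times the level of the median window, 0.835 to 1.36 CPM per end. Windows with low counts were removed by filterByExpr (minimum count 10). Set differences and Dam against fusions used the quasi-likelihood F test with TMM scaling, and p-values were adjusted over all windows. The code was tested on simulated counts. The members and gene lists were chosen with earlier results of these data known, so families are described by counts and medians. Named were fixed genes, the 12 highest and 8 lowest consistent windows with at least 5 ends, the 3 highest and 2 lowest members of each list, and the 8 highest and 5 lowest bins, and further members of the eye, antennal, Hox and marker lists. Low windows with at least 10 ends and a read in at least 80% of them were added after the values were seen. The highest and lowest windows were of protein-coding genes, without any that shared most of its ends with one already taken. Depth was 21416846 to 39848344 reads per Dam library, and no counting intervals were computed. Replicate numbers were not used to pair the sets in the main fits. Alternatives included DESeq2 1.42.0, limma 3.58.1 and each library left out.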

Additional observations from a re-analysis of the deposited data

How the results depend on the processing

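Against 850 consistently low windows, there were 513 with only ends that hold a read as the denominator, 1372 with the mean end as the scale, 564 at an adjusted p below 0.01, 536 from ends of 1 window alone, 343 among windows with a read in 80% of ends (chosen after seeing the data) and 1839 without Set 2. On the mean of sets, 1557 windows were called above with the mean end as the scale, against 2456, and 1577 were called below among windows with a read in 80% of ends and 1645 without Set 3, against 2471. Bins of 5 kb gave 6203 above and 6295 below (3838 and 2830 in each set), and the mean end as the scale gave 1410 and 5463 (919 and 2744).

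The order eye, housekeeping, antennal and silent of the list medians was the same in all settings run, except from the median end, where the antennal list was below the silent one. Reads expected by fragment length, also chosen after seeing the data, moved none of the main counts by over 1.5 times. Relative to them the list median was 1.30 for eye genes, −0.00054 for antennal, 0.41 for housekeeping and −0.58 for silent genes. The eye median was 0.88 from the median end of each window. The antennal median was −0.55 with the mean end, 0.21 from unshared ends and −0.89 from the median end. The housekeeping median was 0.29 from fragments of 200 to 2000 bases, 0.00286 with the mean end and 0.56 from unshared ends. The silent median was −0.93 with the mean end and −0.35 from the median end. The cause of these moves was not tested, beyond the shift that another scale brings by construction.

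Windows that differed between sets numbered 3072 at an adjusted p below 0.01 and 3905 in the fit of all 18 libraries. Leaving out each library in turn gave 4265 to 8226, with 4313 without Set 3 replicate 1 and 4265 without Set 3 replicate 2. With library size alone, 11351 windows were higher in Dam alone than in fusions and 1031 lower, against 5861 and 4016, and this count of lower windows moved by the largest factor of the window counts given here. Leaving out each library in turn gave 1150 to 1523 consistently high and 660 to 830 consistently low windows.

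Single windows reversed as follows. Without flanks, levels were −0.36 for alphaTub84B, −1.88 for danr, −0.14 for Aprt, −0.051 for Or47a, −0.11 for Obp56b, −2.21 for Cpr65Av, 0.081 for Cpr72Eb and −0.96 for Drsl2. From fragments of 200 to 2000 bases they were 0.055 for Cpr72Eb and −1.60 for DIP-iota. From unshared ends they were −0.058 for Aprt, −2.26 for RpL26, −0.11 for Cpr65Ec, 0.10 for Cpr72Eb, −0.050 for Acp54A1 and −2.26 for Jra. From the median end they were −0.18 for CG14567 and −0.12 for danr. Dam minus fusions was, with library size alone, 0.030 for Dll, 0.69 for ct, 0.92 for RpL32, 0.95 for Antp and 0.29 for w, and without flanks 0.17 for ato, 0.53 for RpL32 and 0.32 for ninaE.

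With the replicate number as a block, 2426 windows were above and 2530 below on the mean of sets, 1360 and 891 in each set. The deviations of same-numbered libraries of different sets correlated at −0.151 to 0.288, with 2 of 9 pairs over 0.1. Differently numbered libraries correlated at −0.335 to 0.111, with 4 of 18 pairs over 0.1. Between Sets 1 and 2, replicates 1 correlated at 0.252, replicates 2 at 0.288 and replicates 3 at −0.0384. Deviations from a mean of 3 libraries are tied to each other, so these values cannot decide whether the numbers pair the sets. Depth limits low windows: at 23 to 49 reads per end in the median window, ends without a read may be unmethylated, too short to amplify or not mappable, and these cannot be told apart.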
